A study of Mus musculus with 2254 samples.

Results

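The 34 genes described here encode the contractile and cytoskeletal proteins of smooth muscle, from the actins and myosin to the adhesion proteins that anchor them. They were taken as a list of symbols with no cutoff on a measured value, drawn up with earlier results of these data known, and all 34 had a row among the 30950 genes counted. They were measured in single brain cells from adult C57BL/6 mice, sorted by fluorescence into 384-well plates and sequenced by Smart-seq2, a method that copies full-length polyadenylated RNA. Every group carried SM22-Cre and Rosa26-stop-tdTomato, a red reporter switched on by a Cre that the promoter of Tagln drives, so Tagln is both a gene of this list and the driver of the reporter. As labelled, the groups differed in Notch3 status: 1127 wells were labelled KO (plates 043, 467 and 471) and 1127 were labelled WT (plates 044, 468 and 469). The receptor Notch3 is made by the mural cells of vessels. The sort gate, the Notch3 allele and the reporter's reads were not analysed here. Each sample was 1 cell and no animal was named, so each label counted as 1 sample, no test was possible, and differences are described plate by plate.

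Smooth muscle shortens when myosin, built from the heavy chain Myh11 and the light chains Myl9 and Myl6, pulls on filaments of the actins Acta2 and Actg2. The kinase Mylk switches myosin on by phosphorylating its light chain, and a phosphatase with the subunits Ppp1r12a or Ppp1r12b, restrained by the inhibitor Ppp1r14a, switches it off. Calponins (Cnn1, Cnn2), caldesmon (Cald1), tropomyosins (Tpm1, Tpm2), leiomodin (Lmod1), smoothelin (Smtn) and transgelin (Tagln) bind the actin filament. Dense bodies and adhesion plaques hold the filaments through Actn1, Flna, Vcl, Tln1, Zyx and the LIM protein Csrp1, and the intermediate filaments Des and Synm tie them together. In brain vessels these genes are known to be highest around arteries and arterioles and low in capillary pericytes. Many of them are known targets of serum response factor, which binds the CArG box.

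Of the 34 genes, 29 had a promoter in the RefSeq table for GRCm38.p6, a window of 300 bases from 250 before to 50 after the start site. A CArG box, searched on both strands, was found in the windows of 6 of the 29 genes (20.69%), and in those of 488 of 27025 genes overall (1.806%). Counted by window it was 7 of 39 against 535 of 32851 (1.629%). Most of the 29 genes had no match, Acta2 and Cnn1 among them, and Actg2, Tagln, Myh11, Nexn and Xirp1 had no window. Boxes outside the windows or with other letters were not searched for. The 6 stretches found are shown, each as 30 bases on the gene's own strand with the box in capitals.
Cnn2, chr10:79988534-79988563, plus strand: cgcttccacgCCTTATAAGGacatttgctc
Filip1l, chr16:57549170-57549199, plus strand: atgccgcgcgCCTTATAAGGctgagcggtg
Vcl, chr14:20929161-20929190, plus strand: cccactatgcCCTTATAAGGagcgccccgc
Myl6, chr10:128493040-128493069, minus strand: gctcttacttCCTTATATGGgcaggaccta
Myl9, chr2:156775293-156775322, plus strand: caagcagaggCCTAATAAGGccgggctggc
Ldb3, chr14:34588697-34588726, minus strand: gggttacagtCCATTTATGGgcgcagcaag
Cnn2, Filip1l and Vcl had the same 10 letters, 56, 62 and 227 bases before the start. The box lay 50 bases before a start in Myl6 and 161 bases before it in Myl9, and the single box of Ldb3 lay 109 and 35 bases before its 2 start sites. For Filip1l and Myl6 this was an inner start of the gene and not its outermost one. A match is a description of these letters and not a measured binding site.

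Wells were grouped by clustering on other genes, with all 34 members and Notch3 left out, and clusters were named from marker lists that hold no member, so the member levels below did not define the groups. This gave 1192 smooth muscle-like wells, 203 ependymal-like, 200 endothelial-like, 172 fibroblast-like, 267 astrocyte-like, 53 macrophage/microglia-like and 18 pericyte-like wells. Total counts per well ran from 49473 to 763059 with a median of 291872. The plates were not alike: 68.3%, 57.8% and 73.5% of wells were smooth muscle-like on KO plates 043, 467 and 471 and 89.7% on WT plate 044, but 11.0% and 16.4% on WT plates 468 and 469, where nearly all astrocyte-like and macrophage wells lay. Notch3 in smooth muscle-like wells, the check of the labels, averaged 71.9, 102 and 113 CPM (counts scaled to the same total in each well) on the KO plates. It was 198 CPM on plate 044 and 864 and 1120 CPM on plates 468 and 469. Plate 044, labelled WT, was thus nearer to the KO plates than to the other WT plates. The counts of called members and the median differences by label are given with and without plate 044.

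In smooth muscle-like wells the light chain Myl9 and the actin Acta2 stood far above the other members. A level here is the mean CPM over the wells of a plate, and levels of different genes are compared per kb of transcript. Myl9 averaged 3180 CPM per kb over the 6 plates (2670 to 3700) and Acta2 averaged 2700 (2140 to 3200), and their ranges overlapped. The next group was Csrp1 (1070 CPM per kb), Tagln (996), Tpm1 (971) and Tpm2 (852), then Myh11 (610), Flna (578) and Cald1 (522). Neighbours in the order overlapped over plates except at 2 places: Acta2 lay wholly above Csrp1, and Ldb3 lay wholly above Xirp1, the lowest gene.

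**Figure D1:**
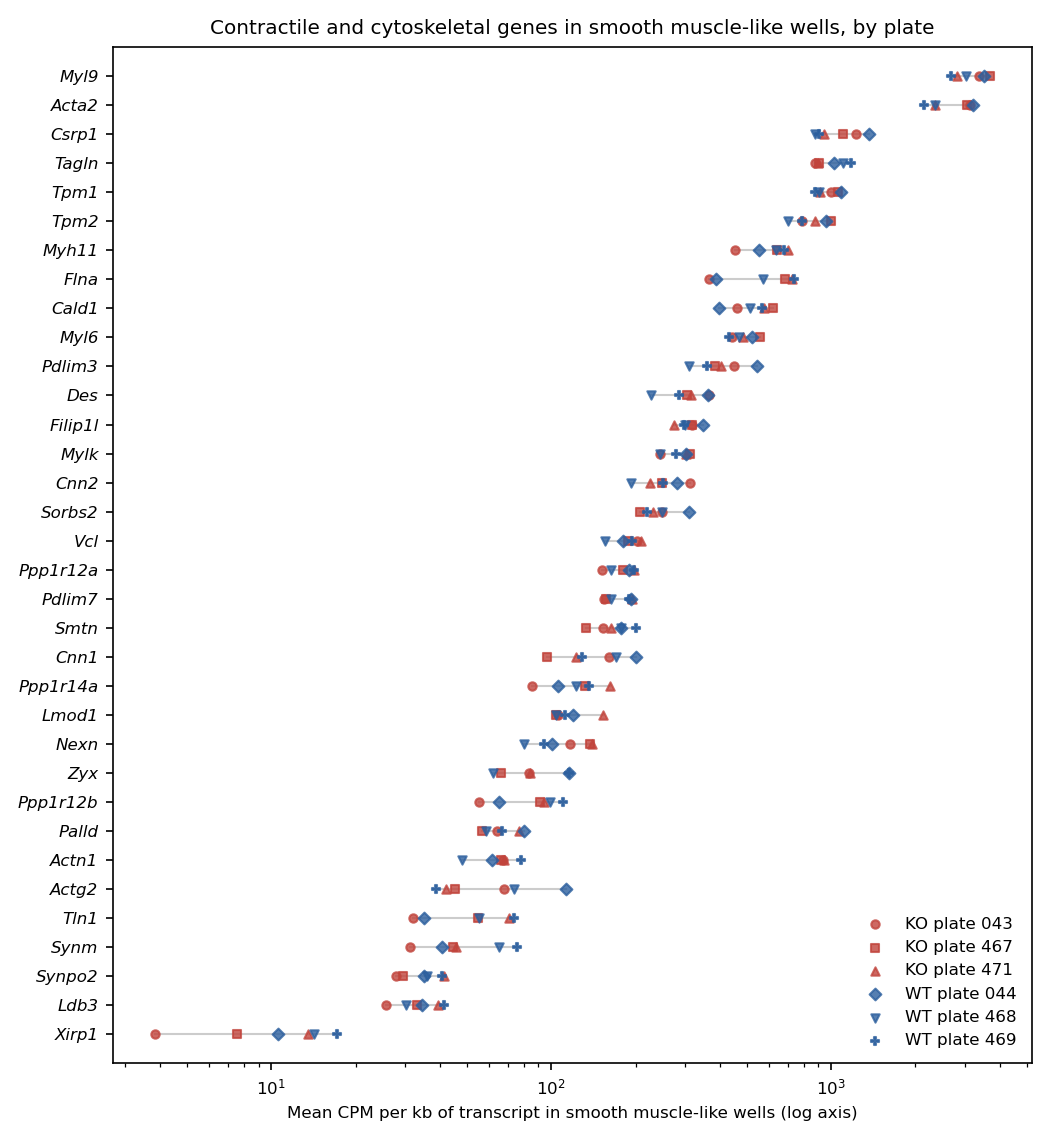
Level of each of the 34 genes in smooth muscle-like wells, as mean CPM per kb of transcript on a log axis, with 1 point per plate (red, KO label; blue, WT label) and a line over the range. The genes are ordered by their mean over plates, and the range of each overlaps the next except between Acta2 and Csrp1 and between Ldb3 and Xirp1.

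Acta2 was 6370, 6200 and 4760 CPM on KO plates 043, 467 and 471 and 6510, 4780 and 4350 CPM on WT plates 044, 468 and 469. The labels overlapped, and plates 471, 468 and 469 were the low ones. Myl9 was 3790, 4170 and 3180 CPM under the KO label and 3960, 3420 and 3010 CPM under WT, with the same 3 plates low. The levels of both genes may understate their abundance, since their counts per well came near the number of exon bases: the median was 0.741 reads per exon base for Acta2 (highest 1.07) and 0.894 for Myl9 (highest 1.3). Only 1 of 27956 genes exceeded 2 reads per exon base in any well and 28 exceeded 1. An adjustment for such a ceiling raised Acta2 on plate 043 from 6370 to 7750 CPM and Myl9 from 3790 to 4810 CPM, without changing a call below. Whether the submitters merged reads at the same position is not given in the sources used here.

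Among the myosin genes, the heavy chain Myh11 was 2980, 4200 and 4580 CPM under the KO label and 3630, 4150 and 4440 CPM under WT. It was found in 99.4% of smooth muscle-like wells. Myl6, the other light chain, averaged 484 CPM per kb, but 18.47% of its 50-base stretches also occur in the pseudogene Gm5526, so its counts are uncertain. Mylk averaged 281 CPM per kb, the phosphatase subunits Ppp1r12a and Ppp1r12b 180 and 85.7, and the inhibitor Ppp1r14a 124. The ranges of the phosphatase subunit Ppp1r12a and of Ppp1r14a overlapped over plates.

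Most members were present in nearly every smooth muscle-like well, and 4 were not. Cnn1, the smooth muscle calponin, had a read in 51.5% of wells, the Z-disc protein Ldb3 in 54.9%, the enteric-type actin Actg2 in 32.9% and the actin-binding repeat protein Xirp1 in 27.9%. Synpo2, a dense body protein, had a read in 69.9% and every other member in 79.9% or more. Cnn1 split the wells sharply: 578 had no read, 84 had 1 to 3 reads and 530 had 4 or more. The median over the 1192 wells was 2.92 CPM, which served as the dividing line between Cnn1-high and Cnn1-low wells.

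Cnn1-high wells had more of nearly every other contractile gene than Cnn1-low wells of the same plate, and the size depended on the gene. Of the 33 other members, 28 were higher in Cnn1-high wells on every plate and 0 were lower on every plate. Over the 9629 genes measured, 585 were higher and 689 were lower on every plate. The median log2 difference was 0.48 for the members and -0.06 over all genes. Differences are on the log2(CPM + 1) scale, on which a gene near 0 CPM has a difference that depends on the added 1. Only 2 members, Actg2 and Sorbs2, were over 2-fold higher on all 6 plates and 0 were over 2-fold lower, where the background was 0.436% of all genes higher and 0.561% lower. The other smooth muscle markers, 12 genes outside the list such as Kcnmb1 and Map3k7cl, had a median of -0.02. These 12 are the smooth muscle list by which clusters were named, so their differences between classes are partly set by the naming.

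Actg2 was 172, 139 and 121 CPM in Cnn1-high wells of KO plates 043, 467 and 471 and 222, 267 and 121 CPM in those of WT plates 044, 468 and 469. In Cnn1-low wells it was 1.78, 23.6 and 2.47 CPM and 4.87, 0.144 and 0.0905 CPM. The Cnn1-high wells thus held far more Actg2 on every plate, least so on plate 467 (log2 difference 2.52, against 7.87 on plate 468). Sorbs2, a SORBS family adaptor of stress fibres and Z-discs, was 2010 to 3010 CPM in Cnn1-high and 740 to 1160 CPM in Cnn1-low wells, and the ranges did not overlap (mean difference 1.30, from 1.00 on plate 471 upward).

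Synpo2 had a larger mean difference than Sorbs2, 1.64, but fell just short of 2-fold on plate 469 (0.99). Palld (1.15), an actin-bundling protein of dense bodies, Smtn (1.08) and Ldb3 (1.07) came next. Smtn was 621 to 1130 CPM in Cnn1-high and 290 to 444 CPM in Cnn1-low wells. The genes with the highest levels differed unequally: Acta2 differed by 0.26 (0.13 to 0.70 over plates), Myl9 by 0.18 (0.10 to 0.38) and Tpm1 by 0.29, but Tagln by 0.43 and Csrp1 by 0.84. Another set did not follow Cnn1 at all. It held Cnn2, the broadly expressed calponin (-0.19), Cald1 (-0.05), Vcl (-0.02), Tln1 (0.00) and Filip1l (0.10), and all 5 had both signs among the plates. Of the genes whose CArG box is shown above, the 3 with identical letters, Cnn2, Vcl and Filip1l, were in this set, while Myl6 differed by 0.28, Myl9 by 0.18 and Ldb3 by 1.07. By role, all 9 PDZ-LIM, dense body and Z-disc members were above 0 in the mean over plates with a median of 0.84, though Filip1l among them was at 0.10. The 7 myosin genes were above 0 with a median of 0.32, and 4 of 6 adhesion genes were, with a median of 0.47. Over all 9629 genes, 4258 were above 0.

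Rgs5, a pericyte and arteriolar mural gene outside the list, ordered the smooth muscle-like wells the opposite way to Cnn1. In the mural clusters 2, 4, 8 and 13 the mean Rgs5, multiplied by 3, reached that of the pericyte-like cluster. They formed the group of Rgs5-high wells (763, with the 30 wells of the unnamed cluster 13). The group rests on Rgs5 alone, and clusters 2, 4 and 8 were themselves named smooth muscle-like. It was compared with the other smooth muscle-like wells (459, cluster 1). Of the 34 members, 27 were lower in Rgs5-high wells on every plate and 1 was higher on every plate, Cnn2 (0.25). Over all 9618 genes, 548 were lower and 812 were higher on every plate. The median was -0.50 against 0.08 over all 9618 genes. Past 2-fold on every plate were 3 members, all lower, Actg2 (-2.71), Cnn1 (-2.40) and Synpo2 (-1.34), where the background was 0.166% of genes lower and 0.53% higher. The comparison shares its wells with the Cnn1 split, so it is not a separate line of evidence.

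Cnn1 was 814, 639 and 568 CPM in the other smooth muscle-like wells of the KO plates and 740, 844 and 539 CPM in those of the WT plates. In Rgs5-high wells it was 134, 83.5 and 129 CPM and 227, 123 and 108 CPM, so that the groups did not overlap. Synpo2 was 440 to 612 CPM against 169 to 253 CPM. Myh11 differed by -0.49, Acta2 by -0.28 and Myl9 by -0.18.

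When the smooth muscle-like wells were instead divided into 4 bands of 298 wells by their Rgs5 level (dividing lines at 342, 1840 and 4100 CPM), the share of Cnn1-high wells went from 86.6% in the lowest band through 63.4% and 37.2% to 12.8% in the highest. This division was added after the data were seen. From the lowest to the highest band 29 of 34 members were lower on every plate and 1, Vcl, was higher on every plate. Over all 9767 genes, 661 were lower and 755 were higher on every plate. The median member stood at -0.87, against 0.03 over all 9767 genes. Past 2-fold on every plate were 5 members, all lower, against 0.86% of genes lower and 1.19% higher: Actg2 (-7.05), Cnn1 (-6.95), Synpo2 (-2.72), Sorbs2 (-2.24) and Palld (-1.88). Plate 468, with 11 and 13 wells in the end bands, had the lowest value of 30 members. Without it the same 5 members were past 2-fold on every plate (1.03% of genes were lower), and the median was -0.64 against 0.03 over all genes. Lower on every plate were then 29 members, a count not made over all genes here. Acta2 then differed by -0.30 and not -0.54, and Csrp1 by -1.25 and not -1.75.

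The steps had different shapes on the 5 plates with 10 wells in every band. Cnn1 averaged 754, 441, 142 and 16.3 CPM in bands 1 to 4, and Actg2 averaged 244, 62.3, 17.3 and 2.15 CPM, so both had already dropped in the second band. Csrp1 averaged 2590, 2500, 1930 and 1110 CPM, and Acta2 averaged 6000, 6080, 5590 and 4920 CPM, so these changed mainly in the last bands. Cnn2 averaged 574, 615, 707 and 687 CPM, with its lowest value in the lowest Rgs5 band. In the mean over these plates 24 members stepped down at each band, among them all of the actin regulators except Cnn2 and Cald1. The share of all genes that did so was not counted here, so how unusual 24 is cannot be read from it.

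**Figure D2:**
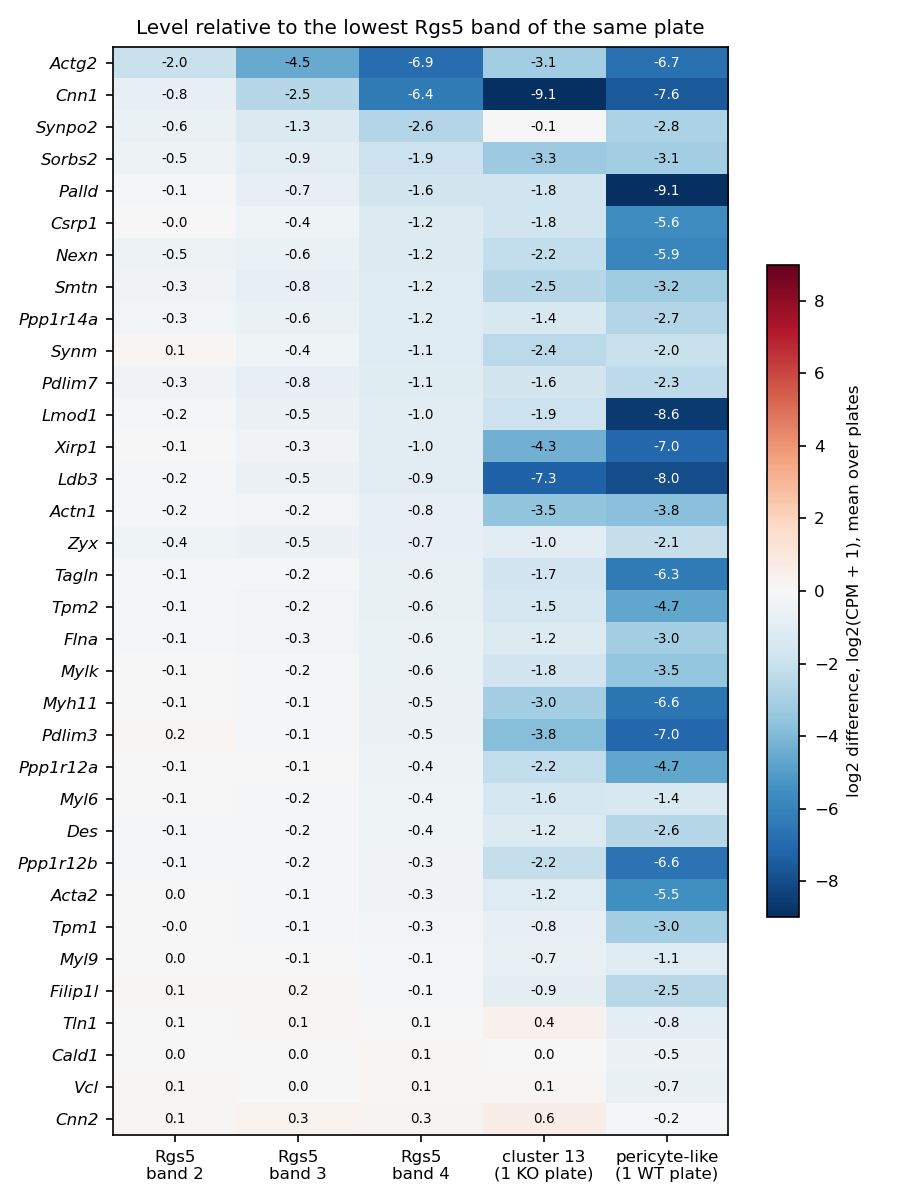
Difference of each gene from the lowest Rgs5 band of smooth muscle-like wells on the same plate, on the log2(CPM + 1) scale, as a mean over the 5 plates with 10 wells in every band. Cluster 13 was compared on KO plate 043 and pericyte-like wells on WT plate 469. Blue is lower and red is higher. Actg2 and Cnn1 fall from the second band on, and Cald1, Vcl, Tln1 and Cnn2 at the foot stay within 0.3 of 0 in every band.

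The Rgs5-high wells also held a small cluster apart from the rest. Cluster 13 had 30 wells, 29 of them KO and 19 of these on plate 043, with 7310 CPM of Rgs5 and 1430 CPM of the pericyte channel gene Kcnj8 but 0.1 CPM of the pericyte gene Atp13a5, and it met no cell type's naming rule. On plate 043 it had 2880 CPM of Acta2 and 535 CPM of Des, but 412 CPM of Myh11, 0.702 CPM of Cnn1, 0.174 CPM of Ldb3 and no read of Xirp1. Synpo2, which fell with Cnn1 elsewhere, was 500 CPM in cluster 13, against 516 CPM in the lowest Rgs5 band of that plate. Vcl was 1130 CPM and Cnn2 957 CPM, at or above the smooth muscle-like levels. Since nearly all of these wells carry 1 label and most lie on 1 plate, label, plate and cell state cannot be told apart here.

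Pericyte-like wells could be compared on WT plate 469 alone, where 10 of them stood against 61 smooth muscle-like wells. Of the 34 members, 30 were over 2-fold lower and 0 higher, where 28.5% of 11148 genes were lower and 26.5% higher, and the median was -3.10 against 0.00 over all genes. Acta2 was 102 CPM against 4350 CPM, Myh11 52.8 against 4440, Tagln 26.4 against 1880 and Csrp1 45.0 against 1660. Palld, Ldb3 and Xirp1 had no read in the 10 wells. The 12 other smooth muscle markers, which took part in naming the clusters, had a median of -6.05.

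The members that stayed within 2-fold in pericyte-like wells were among those that did not follow Cnn1. Cnn2 was 475 CPM against 616 CPM, Cald1 1780 against 2700, Vcl 592 against 1020 and Tln1 356 against 618. Myl9 differed least of the 30 called members, with 1420 CPM against 3010 CPM. The phosphatase subunits separated from their inhibitor: Ppp1r12b was 9.93 CPM against 975 and Ppp1r12a 31.5 against 831, while Ppp1r14a was 26.5 against 129. The pericyte-like cluster also held 1148 CPM of the endothelial gene Cldn5, against 2160 CPM in the endothelial-like cluster 7. What part endothelial RNA has in the member levels of the pericyte-like cluster was not tested.

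Outside mural cells the levels of the members ranged from near 0 to the smooth muscle-like level. For each plate the level in another class was expressed as a percent of the smooth muscle-like level of the same plate. In fibroblast-like wells the median member stood at 12.6% ± 5.9 (SD over 6 plates), from 6.25% to 21.3%. The 12 other smooth muscle markers stood at 0.39% ± 0.29. As these 12 also named the clusters, their levels in other classes are not independent of the naming. Ependymal-like wells had 4.37% ± 1.69 for members and 1.15% ± 0.80 for the other markers. Astrocyte-like wells had 0.898% and 0.582% and macrophage/microglia-like wells 0.24% and 0.0617%, as means of plates 468 and 469, which alone held enough of them.

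In fibroblast-like wells the members nearest to their smooth muscle-like level were Cnn2, Zyx and Tln1. Cnn2 was 492 CPM over the 6 plates, on average 79.2% of its smooth muscle-like level (42.3% to 98.7%), Zyx was at 75.1% and Tln1 at 53.2%. Vcl was at 38.4%, Pdlim7 at 38.2%, Cald1 at 36.3% and Myl6 at 34.2%, while other adhesion members were lower, with Csrp1 at 19.9%, Flna at 15.7% and Actn1 at 8.04%. Myh11 was at 0.275% (0.0106% to 0.616%), and Xirp1 had no read in any of the 172 wells, which by the 3-count rule allows up to 1.74% of wells with a read and sets no limit on wells expressing the gene. After every well was thinned to 50000 counts, 73.3% of fibroblast-like wells (exact binomial 95% interval 66.0% to 79.7%) had an Acta2 read, against 97.1% before thinning. Macrophage/microglia-like wells, which should lack the gene, had one in 18.9% (9.44% to 32.0%) after thinning. These wells all lay on plates 468 and 469, which held only 11 and 14 of the 172 fibroblast-like wells. The 73.3% and the 18.9% thus come mostly from different plates. On plates 468 and 469 Acta2 stood at 0.954% and 0.218% of the smooth muscle-like level in fibroblast-like wells. In macrophage/microglia-like wells it stood at 0.0911% and 0.183%. Intervals cover counting error only.

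Ependymal cells are ciliated cells that line the ventricles. Their wells held 190 to 256 CPM of the intermediate filament gene Synm, 60.9% of the smooth muscle-like level, and 75.1 to 236 CPM of Synpo2 (46.4%). Acta2 was 895, 1320 and 1110 CPM on the KO plates, 1120 CPM on plate 044 and 93.4 and 240 CPM on plates 468 and 469. It was therefore high on the 4 plates rich in smooth muscle-like wells and low on the other 2. Acta2 was found in 90.6% of thinned ependymal-like wells (85.8% to 94.3%) and Myh11 in 15.8% (11.0% to 21.5%). Des was at 0.086% and Myh11 at 0.106% of their smooth muscle-like levels, against 13.9% for Acta2. The ratio of Acta2 to Myh11 thus differed between ependymal-like and smooth muscle-like wells. Of the other smooth muscle markers, Kcnmb1 stood at 104% in ependymal-like wells (82.5% to 118% over plates), and Casq2 varied from 6.17% on plate 468 to 584% on plate 467.

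The endothelial-like class held 2 unlike clusters. Cluster 7, with 45 and 97 of its 151 wells on WT plates 468 and 469, had a median member level of 3.52% and 0.251% for the other smooth muscle markers. Its Acta2 was 14.0 and 6.70 CPM on the 2 plates, 0.223% of the smooth muscle-like level, while Synpo2 stood at 42.1%, Myl6 at 37.9%, Sorbs2 at 35.7%, Tln1 at 34.2% and Smtn at 28.2%. Cluster 11, with the arterial genes Bmx and Gkn3, had members at 21.4% and the other markers at 22.4%, with 2240 CPM of Acta2 on plate 471 and 1250 CPM on plate 044, the plates that held 10 wells of it. Its members were at 29.2% on plate 471 and 13.6% on plate 044. As cluster 7 was measured on the plates poor in smooth muscle-like wells and cluster 11 on plates rich in them, cluster and plate cannot be told apart. With both clusters together the median member was at 16.9% ± 13.0, from 3.18% on plate 469 to 35.0% on plate 467, against 16.1% ± 15.2 for the other markers. The part of smooth muscle cells or their RNA in the wells of cluster 11 was not tested.

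Other classes had single members at high level. Astrocyte-like wells held 384 and 215 CPM of Vcl on plates 468 and 469 (33.9% of the smooth muscle-like level on average) and 582 and 505 CPM of Csrp1 (33.4%). Macrophage/microglia-like wells held 385 and 205 CPM of Zyx, which was 195% of the smooth muscle-like level on plate 468 and 55.6% on plate 469, and 234 and 368 CPM of Tln1 (54.9%). Both of the latter proteins are components of focal adhesions.

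**Figure D3:**
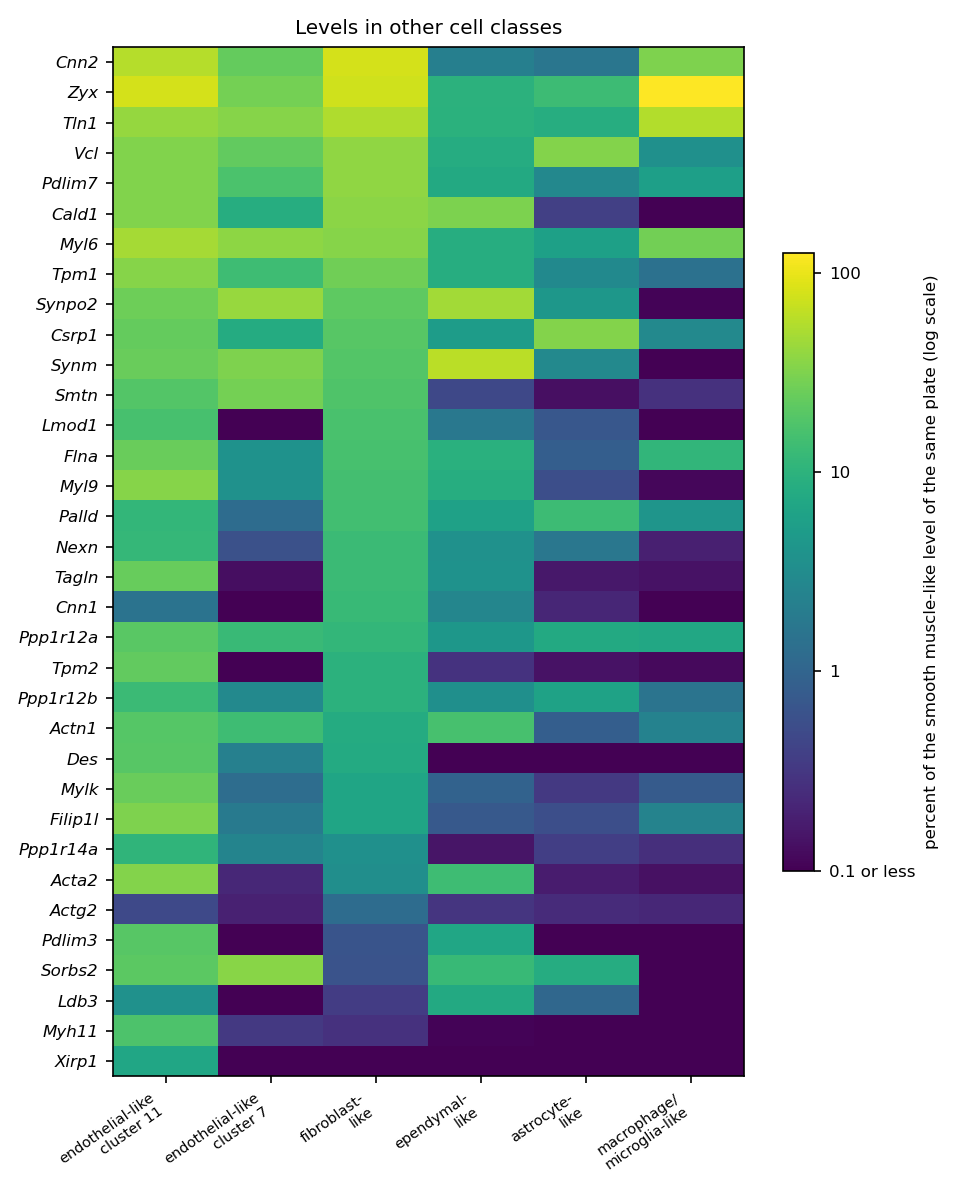
Level of each gene in 6 groups of wells as percent of the smooth muscle-like level of the same plate, mean over plates, on a log colour scale from 0.1 or less (dark) to over 100 (yellow). Cnn2, Zyx and Tln1 at the top reach over 50% in fibroblast-like wells, and Myh11 and Xirp1 at the foot are below 0.3% there.

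Between the Notch3 labels, the contractile genes of smooth muscle-like wells differed little. By a size rule of at least 2-fold, at least 10 CPM and a read in 10% of wells, with the 3 plates of each label not overlapping, 0 of 34 members were called, against 2.27% of the 9612 genes measured. The median KO minus WT difference was -0.02 against 0.02 over all genes. It was -0.24 between plates 043 and 044, early by their numbers alone, and 0.09 among the later plates, and 17 members were above and 17 below 0. The share of Cnn1-high wells was 31.8% to 51.9% under the KO label, 66.8% on plate 044 and 36.6% and 42.6% on plates 468 and 469.

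Plates did not overlap for 3 members, 1 higher (background 5.06%) and 2 lower (4.45%). Tagln was 1400, 1440 and 1430 CPM in KO and 1620, 1750 and 1880 CPM in WT, so every KO plate was below every WT plate (-0.30). Smtn was 517, 449 and 552 CPM against 598, 598 and 677 CPM, also apart (-0.31). Both have exons that overlap antisense gene models, and the sources used here do not give the strand setting of the counting. Nexn, an actin-binding Z-disc protein, was higher in KO, with 301, 353 and 358 CPM against 260, 205 and 241 CPM (0.52).

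The largest downward differences had overlapping plates. Xirp1 was 22.4, 43.9 and 78.8 CPM in KO and 62.1, 83.2 and 99.6 CPM in WT (-0.89). Synm was 245, 348 and 357 CPM against 318, 507 and 589 CPM (-0.54), and Actg2 was 90.4, 60.4 and 56.2 CPM against 150, 97.9 and 51.8 CPM (-0.43). In each of the 3 genes at least 1 KO plate lay within the WT range. The largest upward differences after Nexn were Des (0.19) and Vcl (0.18), whose plates overlapped too. Without plate 044, 1 member was called, Xirp1 (-1.07), against 8.07% of all genes, and the median was -0.01. Plates then did not overlap for 11 members, 6 higher (background 13.4%) and 5 lower (14%), among them Tagln (-0.35), Smtn (-0.34) and Nexn (0.60) as before. Xirp1 was also the 1 call without plate 471 (-1.32), against 3.38% of all genes.

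Partner genes outside the list were read against the same backgrounds, 5.06% of all genes apart and higher, 4.45% apart and lower and 2.27% called. Of 16 measured non-muscle partners, 4 did not overlap and all were higher in KO: Myl12b (0.89) and Myl12a (0.39), the non-muscle myosin light chains, Cnn3 (0.69), another calponin, and Tpm4 (0.56). Myl12b was 250, 271 and 279 CPM in KO, above all WT plates with 189, 126 and 122 CPM. Of the 16, 0 were called. Without plate 044 it was 1 of 17, Myl12b (1.10), against 8.07% of all genes, with 7 of 17 apart and higher, against 13.4%. Among 18 adhesion and costamere genes, the integrin Itga5 was called higher (1.90, from 17.8 to 23.8 CPM against 14.4, 0 and 12.4 CPM), but without plate 468, the plate at 0, it differed by 0.61 and was not called. In the same list Sgca, a dystrophin-complex sarcoglycan, was apart and lower (-0.91, and -0.66 without plate 044). Among 10 contraction control genes, the kinase Prkca was called higher (1.99), with 10.7, 33.5 and 12.7 CPM against 8.46, 3.91 and 0.926 CPM, and without plate 044 it differed by 2.53. Of 6 measured genes of transcription by serum response factor, 0 were apart.

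In fibroblast-like wells several members were higher under the KO label. Of 29 measured members, 8 were called and all 8 were higher in KO, against 6.74% of 11218 genes called in either direction. Plates did not overlap for 11 members higher in KO and 0 lower, where the background was 7.05% higher and 3.59% lower, and the median was 1.05 against 0.18 over all genes. The difference was mostly between the later plates: the median was 0.30 between plates 043 and 044 and 1.23 among plates 467, 471, 468 and 469. The other 5 members, Actg2, Ppp1r14a, Pdlim3, Ldb3 and Xirp1, were below the minimum level under both labels.

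Tagln was 238, 233 and 396 CPM in fibroblast-like wells of the KO plates and 133, 136 and 6.97 CPM on WT plates 044, 468 and 469 (2.42). Cnn1 was 30.0, 36.8 and 133 CPM against 16.7, 1.15 and 0 CPM, and its difference of 4.00 depends on the added 1 CPM. Palld was 93.3, 67.1 and 149 CPM against 63.5, 10.2 and 0.585 CPM (3.24). In these 3 genes plate 044 stood closest to the KO plates or level with plate 468, and plate 469 was the lowest.

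Filip1l, a filamin A-interacting protein, was 146, 185 and 125 CPM against 34.0, 5.5 and 44.9 CPM (2.79), so plate 044 sided with the other WT plates. Des was 120, 80.0 and 168 CPM against 42.7, 17.3 and 31.9 CPM (1.99), with the same order of labels. Tpm2 was 219, 205 and 387 CPM against 159, 69.3 and 77.8 CPM (1.44). Myl9 was 703, 660 and 800 CPM against 603, 223 and 257 CPM (1.14), and Tpm1 was 978, 910 and 1080 CPM against 803, 422 and 320 CPM (1.05). For the tropomyosins and Myl9, plate 044 lay between the groups.

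Acta2 was 302, 290 and 251 CPM in fibroblast-like wells of the KO plates, 280 CPM on plate 044 and 45.6 and 9.49 CPM on plates 468 and 469. Plate 044 lay within the KO range, so the gene was not called. Without plate 044 it was called (3.67), where 19.2% of all genes were. With every plate, Cald1, Zyx and Pdlim7 did not overlap but were under 2-fold. Smtn (0.07), Tln1 (0.20) and Synpo2 (-0.62) showed no upward shift of that size. Of the partner genes, the laminin-binding integrin Itga7 was the 1 called, with 4.69, 7.91 and 30.3 CPM against 1.19, 2.88 and 0.187 CPM (2.43, and 2.44 without plate 044). It was 1 of 17 measured adhesion and costamere genes, where 6.74% of all genes were called. The 18 non-muscle partners, 10 contraction control genes and 5 genes of transcription by serum response factor had 0. Without plate 044 these lists had 2, 1 and 0 called, and the 17 adhesion and costamere genes had 3, against 19.2% of all genes.

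**Figure D4:**
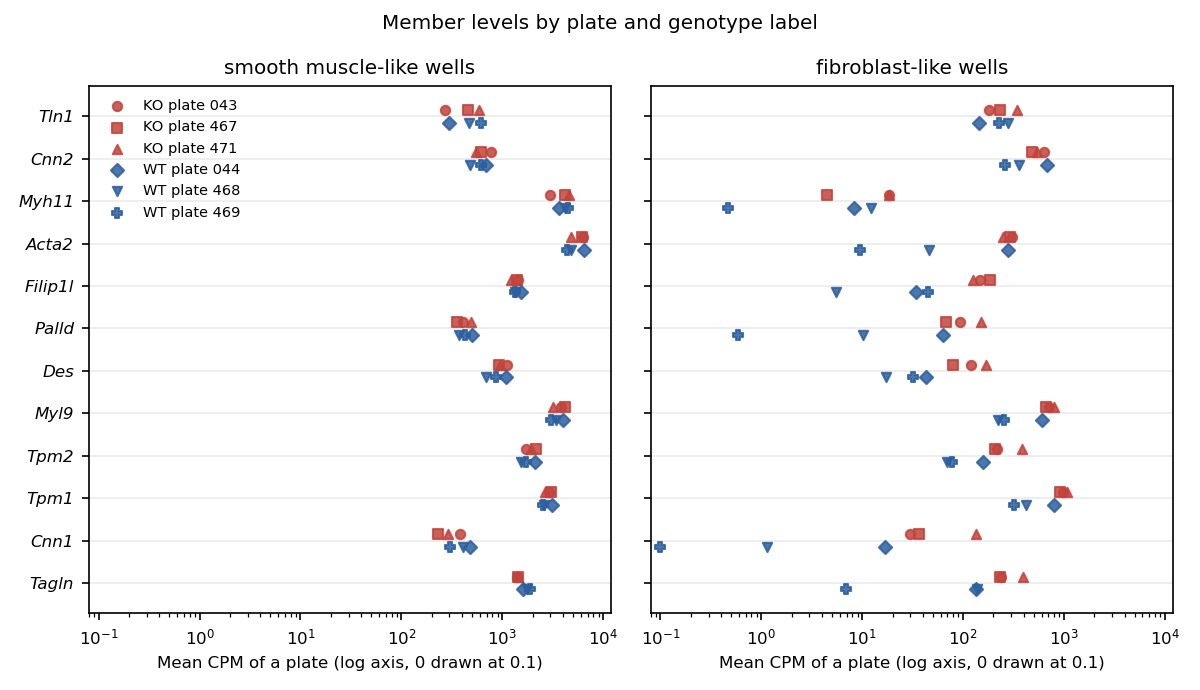
Level of 12 genes in smooth muscle-like wells (left) and fibroblast-like wells (right), as mean CPM of a plate on a log axis with 0 drawn at 0.1 and 1 symbol per plate (red, KO label; blue, WT label). The 8 genes called in fibroblast-like wells are those from Tagln up to Filip1l, and in smooth muscle-like wells the same genes differ by at most 0.40 in the mean log2 value.

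Other measures were taken in the same fibroblast-like wells. The summed 7 fibroblast markers were 7420 to 8880 CPM in KO and 9650 to 11600 CPM in WT. The summed 12 smooth muscle markers outside the list were 231 to 388 CPM and 205 to 234 CPM, with 2 to 4 of the 12 at 10 CPM or more under either label. This sum mixes unlike genes: Itga8 averaged 47.1% of its smooth muscle-like level (16.8% to 80.1%) and Mustn1 12.1% (2.46% to 19.8%), against a median of 0.39%. It can therefore hide label differences of single markers. Myh11 was at most 18.4 CPM. The summed 4 markers of choroid plexus epithelium were 207, 156 and 465 CPM in KO and 88.8, 138 and 80.7 CPM in WT, so they did not overlap. Median genes per well were 5579 to 6386 and 4912 to 6005. The share of smooth muscle-like wells per plate, given above, was 11.0% and 16.4% on plates 468 and 469 and over 50% on the others. Their part in the result was not tested. WT plates 044, 468 and 469 gave 14, 11 and 14 fibroblast-like wells and the KO plates 63, 38 and 32. Without plate 044, 13 of 29 members were called, against 19.2% of all genes, and 19 were apart and higher (17.3%). Without plate 467 it was also 13, against 9.61% of all genes, and without plate 468 it was 6, against 12.1%.

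In ependymal-like wells, 1 of 25 measured members was called, against 6.67% of 11448 genes. This was the crosslinker Actn1, with 50.5, 62.7 and 48.2 CPM on the KO plates and 48.1, 4.71 and 15.7 CPM on WT plates 044, 468 and 469 (1.70). Plate 044 was just below the lowest KO plate, and without plate 468 Actn1 differed by 0.93. It was the 1 member apart and higher in KO (background 7.44%), and Synm was the 1 apart and lower (4.13%), with 190, 209 and 228 CPM against 237, 234 and 256 CPM (-0.21). Of the partner genes, 0 of 18 measured non-muscle partners and 2 of 12 adhesion and costamere genes were called. So were 1 of 9 contraction control genes and 1 of 5 genes of transcription by serum response factor, against the same 6.67%. The kinase Prkg1 was called lower (-2.53), and Klf4 (3.29), Lpp (1.77) and the kindlin Fermt2 (1.29) were called higher. All 4 were also called without plate 044, where 15.6% of all genes were. The median member difference was 0.42 against 0.16 over all genes, and 0.07 between plates 043 and 044. Without plate 044 the median was 0.34 against 0.09 over all genes. Apart were then 6 members higher (background 16.2%) and 2 lower (12.6%). Tagln (3.52), Acta2 (2.86), Actn1 (2.48) and Myl9 (1.69) were called higher and Pdlim3 (-1.99) lower. That made 5 of 24 members called, against 15.6% of all genes. It was 5 of 25 without plate 043, against 10.5%, and 5 of 26 without plate 469, against 15.4%.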

How the data were processed

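The deposited values are unnormalized read counts for each gene and well, whole numbers that differ in total between wells. Per the submitters' processing notes, TopHat2 2.1.1, SAMtools 0.1.18, featureCounts and Subread 1.4.6-p5 were used with GRCm38 (mm10). Annotation version, strand setting and duplicate handling are not given in the sources used here. Members and gene lists were chosen with earlier results of these data known.

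Wells with at least 50000 counts and 1000 genes were kept (2252 of 2254) and 0 columns were left out. Wells were clustered on 2000 variable genes without the members and Notch3 (30 components centred and not scaled, 20 neighbours, Leiden resolution 1, seed 1; igraph 0.11.9, leidenalg 0.10.2, scikit-learn 1.9.0, Python 3.11.15). Scaling, and the naming limits (marker score of at least 0.8, margin of 0.1, 3 markers in 25% of wells), were settled on marker genes after the data were seen. This gave 15 clusters. No doublet caller was run, since a well was meant to hold 1 cell, and leaving out wells with markers of a second class was an alternative.

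Each plate with 10 wells of a class gave a mean CPM. To compare labels, log2(CPM + 1) was averaged over the plates of each, and WT was subtracted from KO. Other comparisons were made within a plate, and a call needed 2-fold the same way on every plate with 10 wells of both groups. Genes needed 10 CPM and a read in 10% of wells. TMM factors came from edgeR 4.0.16. Self-tests on simulated counts were run first. The text gives in full the called members, the 3 largest label differences each way, and 1 to 3 members of each role. Transcript lengths, coordinates and promoters came from GENCODE and RefSeq tables for GRCm38. Read counts without molecular identifiers are not independent molecules.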

Additional observations from a re-analysis of the deposited data

Results flagged for a closer look

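Tagln differed between the labels in opposite directions in 2 classes. In smooth muscle-like wells every KO plate was below every WT plate (-0.30 on the log2 scale), and in fibroblast-like wells every KO plate was above every WT plate (2.42). The first difference minus the second was -2.71, and this was not tested. In fibroblast-like wells the value rests mainly on WT plate 469, where Tagln was 6.97 CPM, against 133 and 136 CPM on plates 044 and 468. Apart and lower in smooth muscle-like wells were 2 of 34 members, Tagln among them, against 4.45% of all genes, so that share was near the background. Apart and higher in fibroblast-like wells were 11 of 29, against 7.05%.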

How the results depend on the processing

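No count of calls changed direction under the alternatives that gave a value, but the median label difference in smooth muscle-like wells, near 0, changed sign. The 30 members lower in pericyte-like wells and the fibroblast-like and ependymal-like percentages moved by less than the limit in all of them. The count of 0 members called by label in smooth muscle-like wells became 1 between plates 043 and 044 alone and ran from 0 to 1 when plates were left out in turn, the 1 being Xirp1 without plate 471 or without plate 044. Its median of -0.02 was -0.24 between plates 043 and 044 alone, 0.09 among the other 4 plates and 0.02 with TMM factors. With a plate left out it was -0.14 (without plate 471) to 0.05 (without plate 043). Between plates 043 and 044 alone each label had 1 plate, so any difference counted as not overlapping. The share of all genes called in that setting was not counted here. The 8 calls in fibroblast-like wells became 6 to 13, with 13 without plate 467 or without plate 044 and 6 without plate 468, where 9.61%, 19.2% and 12.1% of all genes were called against 6.74% with every plate. Tagln, Cnn1, Tpm2, Des and Filip1l were called in 14 of 14 settings, Myl9 in 12, Tpm1 in 11 and Palld in 10. The 2 calls of the Cnn1 split became 1 with the members kept in the clustering genes. The 3 of the Rgs5-high wells became 5 between the end bands of Rgs5. The 16.9% of endothelial-like wells became 3.52% without cluster 11, a value from plates 468 and 469 alone, where both clusters together stood at 3.63% and 3.18%, and 8.39% without wells above the 99th percentile of a second class, taken over wells not named for it. The last 3 groupings, the ceiling adjustment and leaving out cluster 13 were chosen after seeing the data. The cause of the other changes was not tested. The pericyte-like comparison gave no value with the members kept in the clustering, without wells of a second class or without plate 469, since under 10 wells remained. Leaving out fibroblast-like wells with 2 or more smooth muscle marker reads gave none either, since 1, 6, 1, 0, 4 and 3 wells were left. No paired analysis was possible because the labels carry no shared replicate numbers and no test was made. With every well thinned to 50000 counts, the share of smooth muscle-like wells with a read fell from 32.9% to 18.5% for Actg2 and from 27.9% to 23.9% for Xirp1.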
